A study of Rattus norvegicus with 8 samples.

Results

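The Cyp2c family comprises microsomal cytochrome P450 enzymes of liver that oxidise steroids, fatty acids, retinoids and drugs. Its rat members were taken as Cyp2c6v1, Cyp2c7, Cyp2c11, Cyp2c12, Cyp2c13, Cyp2c22, Cyp2c23 and Cyp2c24, and every array probe whose accession leads to one of these 8 symbols in RefSeq was used. Of 30367 probes on the array, 9 belonged to 7 of the 8 members, with 3 for Cyp2c7 and 1 for each of the other 6. Cyp2c24 had no matched probe and has no value here. No probe led to any further Cyp2c symbol. The array names 15154 genes in all.

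All livers came from adult male Sprague-Dawley rats. For 28 days the PFOS rats had feed that contained potassium perfluorooctanesulfonate, a persistent fluorinated surfactant, at 50 mg/kg of diet, and the control rats had the control diet. There were 4 rats per group and 1 two-colour array per rat. Liver RNA carried Cy5, and 1 commercial pool of rat RNA carried Cy3 on all 8 arrays, with no dye swap.

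In the rat, several Cyp2c genes are read out according to the daily pattern of growth hormone. Pulsatile secretion in males sustains Cyp2c11 and Cyp2c13 through the transcription factor STAT5B, whereas the steadier secretion of females sustains Cyp2c12 and raises Cyp2c7. Other members are less dependent on sex: Cyp2c6v1 is a drug-inducible enzyme, Cyp2c22 has been linked to retinoic acid oxidation, and Cyp2c23 is the epoxygenase that turns arachidonic acid into epoxyeicosatrienoic acids, best studied in kidney. The factors HNF4 and HNF6, the product of Onecut1, bind promoters of several of these genes.

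Across the family the response to PFOS was uneven. Cyp2c22 rose 2.09-fold in the log2 ratio and 2.05-fold in the liver channel. Cyp2c6v1 rose 2.62-fold in the liver channel, but its signal from the common reference was also higher on the PFOS arrays and its ratio did not pass the test. Cyp2c12 averaged 4.39-fold lower in the ratio and 3.39-fold lower in the liver channel. Neither passed, and the PFOS livers ranged from values like those of the controls to far below them. The male-specific Cyp2c11 and Cyp2c13, the 3 Cyp2c7 probes and Cyp2c23 did not pass in any channel.

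In the ratio 1 of 9 member probes passed (limma, Benjamini-Hochberg adjusted p under 0.05 over 16952 probes), against 634 of 16952 probes in all, or 3.74%. That probe was among those higher in PFOS, a class that held 1.74% of all probes, while 2.0% were called lower. The median change of the member probes was 0.16 on the log2 scale, against a median of -0.01 over all probes tested. Of the member probes, 5 were above 0 and 4 below. Those below included all 3 probes of Cyp2c7, so these counts and medians are of probes and not of separate genes. The median size of a change without its sign was 0.18 for the member probes and 0.13 for all probes. In the Cy5 channel alone 2 of 9 member probes passed, against 4.58% of all probes, of which 2.21% were called higher and 2.37% lower. The median change of the member probes in Cy5 was 0.37, against -0.01 over all probes. In the Cy3 channel, which holds the same RNA on all arrays, 0 of 9 passed in limma, against 13 of all probes (0.0767%). An unadjusted p under 0.05 was found for 4 of 9 member probes in the ratio, 8 of 9 in Cy5 and 2 of 9 in Cy3, against 19.5%, 20.6% and 3.6% of all probes.

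All 9 probes were well above background in Cy5 on 8 of 8 arrays, and no member spot was saturated. In Cy3, Cyp2c12 was well above background on 1 of 8 arrays and Cyp2c22 on none, so that the ratio of both is set against a reference signal near the background, and the Cy5 channel alone is the more direct reading. The 8 arrays had median Cy5 spot signals of 116 to 160 units and Cy3 medians of 339 to 373 units. They lay on 1 slide in 2 rows, each with 2 arrays of both groups, and the 4 slide columns held 1 array of each. The number of arrays limits the precision. Members of the family are close in sequence and their probes may bind one another's transcripts, so each value is uncertain as to the gene, and levels of different probes were not compared.

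**Figure D1:**
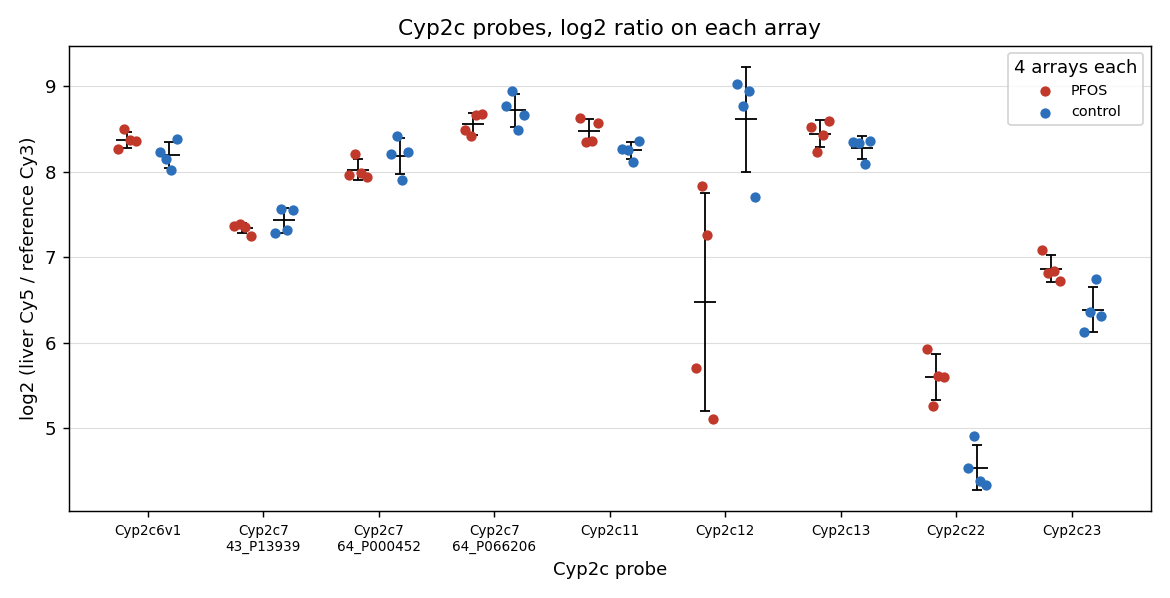
Log2 ratio of liver Cy5 over reference Cy3 (vertical axis) for the 9 Cyp2c probes (horizontal axis), with 1 point per array, PFOS left of control, and bars at the mean ± SD of 4 arrays. Cyp2c22 separates the groups, at 5.26 to 5.93 in PFOS and 4.33 to 4.91 in control, and Cyp2c12 shows the widest spread, at 5.11 to 7.84 in PFOS and 7.71 to 9.03 in control.

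Cyp2c22 was the member called in both the ratio and the Cy5 channel. Its log2 ratio was 5.93, 5.26, 5.61 and 5.60 in the PFOS livers, against 4.53, 4.91, 4.38 and 4.33 in the control livers. The groups did not overlap, and every PFOS value lay above the highest control value. The log2 change was 1.06 (SE 0.16, n = 4 each, limma adjusted p = 0.00867), a fold of 2.09 with a 95% interval of 1.61 to 2.70. A lack of overlap in the ratio was found for 12.6% of all probes and for 1 of the 9 member probes. The 2 Cyp2c22 spots on an array differed in the ratio, with an SD between them of 0.26 to 0.81 log2 units (median 0.43).

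In the Cy5 channel the Cyp2c22 probe was tighter within each group. It stood at 10.13, 10.13, 10.21 and 10.19 log2 units in the PFOS livers, against 9.04, 9.30, 9.02 and 9.16 in the control livers. The change was 1.04 (SE 0.08, limma adjusted p = 0.000189), again with no overlap, and its Cy3 signal lay at 6.20 to 6.28 on the PFOS arrays and 6.19 to 6.27 on the control arrays. Before any correction the median spot signal in Cy5 was 1543, 1379.5, 856.2 and 891 units in the PFOS livers, against 664, 820.8, 521.2 and 443.5 units in the control livers. These uncorrected signals also separated the groups, and they were lower on the arrays of the second slide row in both. Within the slide rows, with 2 arrays of each group, the ratio changed by 0.87 in row 1, which did not pass, and by 1.25 in row 2, which did. With normexp at an offset of 0 the ratio changed by 0.75 and did not pass (limma adjusted p = 0.273).

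Cyp2c6v1, the member long known for its induction by barbiturates, moved in both channels. In Cy5 it stood at 16.79, 16.55, 16.50 and 16.70 log2 units in the PFOS livers, against 14.99, 15.00, 15.38 and 15.61 in the control livers. The lowest PFOS liver lay above the highest control liver, and the change was 1.39 (SE 0.14, limma adjusted p = 0.000964). Its median spot signal in Cy5 was 138181, 111220, 71146 and 90799.5 units in the PFOS livers, against 38199, 40257.5, 42710 and 36905 units in the control livers. Even without correction, no control liver reached the dimmest PFOS liver.

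The Cy3 signal of the same spot, from reference RNA that does not differ between the arrays, followed the diet. It stood at 10.14, 9.67, 9.98 and 10.20 log2 units on the PFOS arrays, against 8.58, 8.62, 9.18 and 8.95 on the control arrays. The groups did not overlap in Cy3 either, and the change was 1.16 (SE 0.16, limma adjusted p = 0.0688), which did not pass. The uncorrected Cy3 signal was 1110.5, 782, 926 and 1123.5 units on the PFOS arrays, against 353, 367, 540 and 484 units on the control arrays. The ratio, which divides one by the other, was 8.27, 8.50, 8.38 and 8.36 in the PFOS livers, against 8.23, 8.16, 8.02 and 8.38 in the control livers, and these ranges overlapped. It changed by 0.18 (SE 0.10, limma adjusted p = 0.335). The ratio and the Cy5 channel thus give different sizes for Cyp2c6v1, and what moved the Cy3 signal was not tested. Without a call, Cy3 also had the sign of Cy5 for Cyp2c13 (0.48 against 0.62) and Cyp2c11 (0.34 against 0.55). The same held for the Cyp2c7 probes, but not for Cyp2c23 (-0.05 against 0.37). Within the slide rows the Cy5 change of Cyp2c6v1 was 1.67 in row 1, where it passed, and 1.10 in row 2, where it did not.

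Both channels were also read for other P450 genes outside the family. Cyp2b2, the barbiturate-inducible P450, changed by 5.74 in Cy5, 1.90 in Cy3 and 3.62 in the ratio, and Cyp4a1, the fatty acid omega-hydroxylase, by 2.56, 1.64 and 0.72, and all of these passed. Cyp3a23-3a1, a steroid and drug hydroxylase, changed by 2.02 in Cy5 and 1.46 in the ratio, which passed, and by 0.33 in Cy3, which did not. Alb, for albumin, changed by 0.06 in Cy5, 0.20 in Cy3 and -0.12 in the ratio, and did not pass in any.

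**Figure D2:**
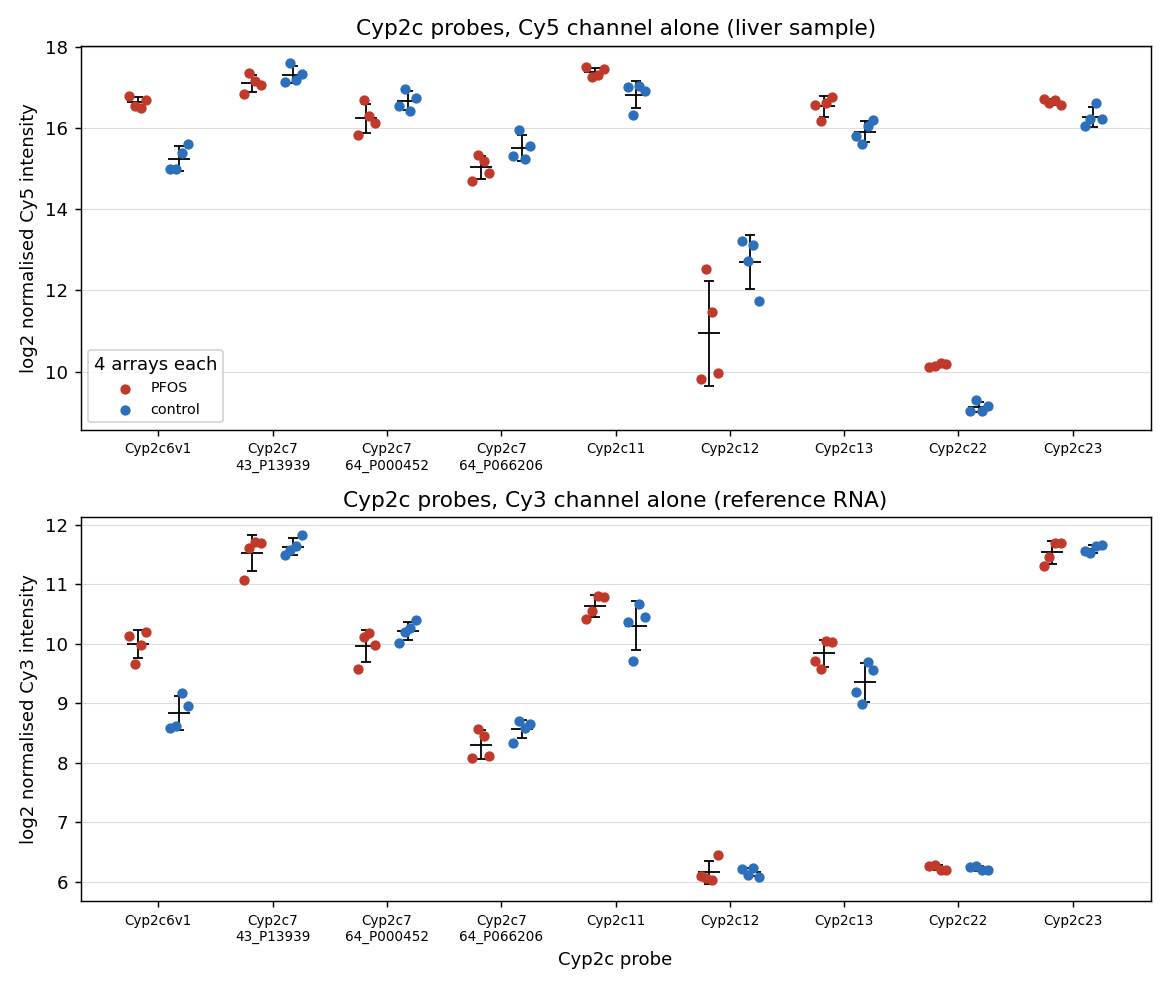
Log2 normalised intensity (vertical axes) of the 9 Cyp2c probes (horizontal axis) in Cy5, the liver sample (top), and Cy3, the reference RNA (bottom), with 1 point per array, PFOS left of control, and bars at the mean ± SD of 4 arrays. Cyp2c6v1 lies higher on the PFOS arrays in both channels, at 16.50 to 16.79 against 14.99 to 15.61 in Cy5 and at 9.67 to 10.20 against 8.58 to 9.18 in Cy3, while Cyp2c22 lies higher in Cy5 and sits near background in Cy3.

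Cyp2c11, the principal male-specific P450 of rat liver and a testosterone hydroxylase, was not called. Its log2 ratio was 8.63, 8.35, 8.37 and 8.57 in the PFOS livers, against 8.27, 8.25, 8.12 and 8.36 in the control livers. The groups overlapped narrowly, at PFOS 2 and control 4, and the change of 0.23 (SE 0.10, 95% interval 0.01 to 0.44) had a limma adjusted p of 0.227. In Cy5 the values were 17.49, 17.26, 17.30 and 17.45 in the PFOS livers, against 17.01, 16.33, 17.04 and 16.91 in the control livers. Here the groups did not overlap, as for 3 of the 9 member probes and 13.2% of all probes, and the change of 0.55 (SE 0.15) did not pass either (limma adjusted p = 0.0758). In Cy3 the change was 0.34, with overlapping groups.

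Cyp2c13, the other male-specific steroid hydroxylase, was not called either. Its log2 ratio was 8.53, 8.23, 8.44 and 8.59 in the PFOS livers, against 8.35, 8.33, 8.09 and 8.36 in the control livers. The groups overlapped, and the change was 0.16 (SE 0.10, 95% interval -0.07 to 0.40, limma adjusted p = 0.424). In Cy5 it changed by 0.62 (SE 0.16, limma adjusted p = 0.0596), with 16.18 to 16.77 in the PFOS livers and 15.60 to 16.20 in the control livers, and in Cy3 by 0.48. The Cy5 change passed in 1 of 11 other settings, with the slide row as a block, at an unchanged 0.62 (limma adjusted p = 0.0161). With 1 array left out it passed in 1 of 8 fits, without PFOS 2, at 0.74 (limma adjusted p = 0.0318).

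Cyp2c12, the female-specific steroid sulfate hydroxylase, was above background in Cy5 in all 8 of these male livers. Its log2 ratio was 5.71, 7.84, 7.26 and 5.11 in the PFOS livers, against 9.03, 8.77, 8.94 and 7.71 in the control livers. PFOS 1 and PFOS 4 lay far below every control liver, PFOS 3 lay below the lowest control liver, and PFOS 2 lay above control 4, so that the groups overlapped at 1 liver of each. The change was -2.14 (SE 0.57, 95% interval -3.43 to -0.84, limma adjusted p = 0.0805). It passed in 0 of 15 other settings and in 1 of 8 fits with 1 array left out. That fit was without PFOS 2, at -2.59 (limma adjusted p = 0.0415). The SD within PFOS was 1.28 log2 units, against 0.61 within the controls.

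The liver channel gave the same order of arrays for Cyp2c12 apart from its dimmest pair. In Cy5 it stood at 9.81, 12.52, 11.47 and 9.97 log2 units in the PFOS livers, against 13.23, 12.72, 13.12 and 11.75 in the control livers. The change was -1.76 (SE 0.58, limma adjusted p = 0.130), and the groups overlapped at PFOS 2 and control 4 again. The uncorrected signal was 1234, 7228, 2036.5 and 776.5 units in the PFOS livers, against 11698.5, 8947.5, 8769 and 2613.2 units in the control livers. Of the control livers, control 4 thus stood lowest in each of these measures. Within the slide rows the ratio changed by -2.13 in row 1 and -2.14 in row 2, and neither passed. The Cy5 change passed in 0 of 11 other settings and in 1 of 8 fits with 1 array left out. That fit was without PFOS 2, at -2.29 (limma adjusted p = 0.0373).

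The promoters of the female-specific Cyp2c12 and the male-specific Cyp2c13 are shown because their start regions are alike. These 2 genes follow one another in the order of the 8 members on chromosome 1. Genes outside the family were not looked for between them. Their measured changes, neither of which passed, had opposite signs. The promoter of Cyp2c22 is shown because it was the called member. RefSeq windows on GRCr8 run from 250 bases before the start site to 50 after it, on the gene's strand, and were held for 7 of the 8 members. Capitals mark matches to CAAAGNTCA, an HNF4-type motif, and to ATTGANT, an HNF6-type motif, on either strand. The windows shown are chr1:248676985-248677284 for Cyp2c12, chr1:248787139-248787438 for Cyp2c13 and chr1:248980718-248981017 for Cyp2c22, all on the minus strand.
Cyp2c12: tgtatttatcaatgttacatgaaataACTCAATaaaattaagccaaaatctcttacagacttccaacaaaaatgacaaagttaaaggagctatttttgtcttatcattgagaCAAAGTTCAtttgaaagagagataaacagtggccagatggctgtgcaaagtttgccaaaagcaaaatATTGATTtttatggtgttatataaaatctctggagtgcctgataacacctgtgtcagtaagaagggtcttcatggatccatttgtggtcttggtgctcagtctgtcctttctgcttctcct
Cyp2c13: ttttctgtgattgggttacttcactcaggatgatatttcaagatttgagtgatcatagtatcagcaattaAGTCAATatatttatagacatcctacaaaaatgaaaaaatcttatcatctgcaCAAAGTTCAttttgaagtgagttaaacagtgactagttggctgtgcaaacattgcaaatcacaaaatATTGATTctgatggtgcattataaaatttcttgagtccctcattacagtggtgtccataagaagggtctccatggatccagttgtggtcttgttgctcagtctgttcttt
Cyp2c22: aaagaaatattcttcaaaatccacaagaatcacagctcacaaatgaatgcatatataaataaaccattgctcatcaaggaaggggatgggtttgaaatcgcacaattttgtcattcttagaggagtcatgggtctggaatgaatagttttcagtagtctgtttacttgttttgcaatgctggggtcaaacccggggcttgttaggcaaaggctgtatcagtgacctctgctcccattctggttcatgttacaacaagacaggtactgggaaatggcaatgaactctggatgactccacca

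The Cyp2c12 and Cyp2c13 windows were identical at 83.6% of 268 aligned bases, with gaps not counted. On the same count Cyp2c11 and Cyp2c24 were identical at 84.0%, and the remaining pairs of member windows at 67.2% to 77.5%. The HNF4-type match began at -138 in Cyp2c12 and -127 in Cyp2c13, and an HNF6-type match on the plus strand began at -71 and -60, both counted from the start site. Each also held an HNF6-type match on the minus strand, at -224 in Cyp2c12 and -180 in Cyp2c13. Both kinds of match were also in the Cyp2c7 window and in none of the other 4. No match overlapped another. Of 33461 RefSeq windows of the same 300 bases, 1.4% held CAAAGNTCA and 8.82% held ATTGANT. TTCNNNGAA, a STAT5-type motif, was in 0 of the 7 member windows and 8.88% of all windows, and TATAAAA was in 5 of 7, not in those of Cyp2c22 and Cyp2c23, and in 5.97% of all windows. These matches are letters in a window and no measure of binding.

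Cyp2c7, a retinoid and steroid hydroxylase that is higher in females, was measured by 3 probes that agreed in sign and did not pass. With A_43_P13939 the log2 ratio was 7.36, 7.39, 7.36 and 7.25 in the PFOS livers, against 7.29, 7.57, 7.32 and 7.55 in the control livers, a change of -0.09 (SE 0.09). With A_64_P000452 it was 7.96, 8.21, 7.98 and 7.94 in the PFOS livers, against 8.21, 8.42, 7.91 and 8.23 in the control livers, a change of -0.17 (SE 0.12). With A_64_P066206 it was 8.49, 8.42, 8.67 and 8.67 in the PFOS livers, against 8.78, 8.95, 8.49 and 8.67 in the control livers, a change of -0.16 (SE 0.11). The groups overlapped for all 3 probes, whose limma adjusted p values were 0.633, 0.466 and 0.475. The lowest bound of their 95% intervals was -0.43. In Cy5 the changes were -0.21, -0.44 and -0.48, in the same probe order, and in Cy3 they were -0.11, -0.25 and -0.27, with no call. The sign of all 3 turned after scaling between arrays, at 0.15, 0.10 and 0.13.

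Cyp2c23, the arachidonic acid epoxygenase, had up to 10 spots per array, of which 8 to 10 were used, and the SD between them was 0.07 to 0.17 log2 units. Its log2 ratio was 7.09, 6.81, 6.84 and 6.72 in the PFOS livers, against 6.12, 6.36, 6.75 and 6.32 in the control livers. The groups overlapped at PFOS 4 and control 3, which was the highest control. The change of 0.48 (SE 0.14, 95% interval 0.16 to 0.79) did not pass (limma adjusted p = 0.103). It passed in 0 of 15 other settings and in 1 of 8 fits with 1 array left out. That fit was without control 3, at 0.60 (limma adjusted p = 0.038). In Cy5 Cyp2c23 changed by 0.37 (SE 0.12, limma adjusted p = 0.113), with 16.56 to 16.72 in the PFOS livers and 16.04 to 16.62 in the control livers. The Cy5 change passed in 0 of 11 other settings and in 1 of 8 fits with 1 array left out. That fit was without control 3, at 0.48 (limma adjusted p = 0.0191). In Cy3 Cyp2c23 changed by -0.05.

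**Figure D3:**
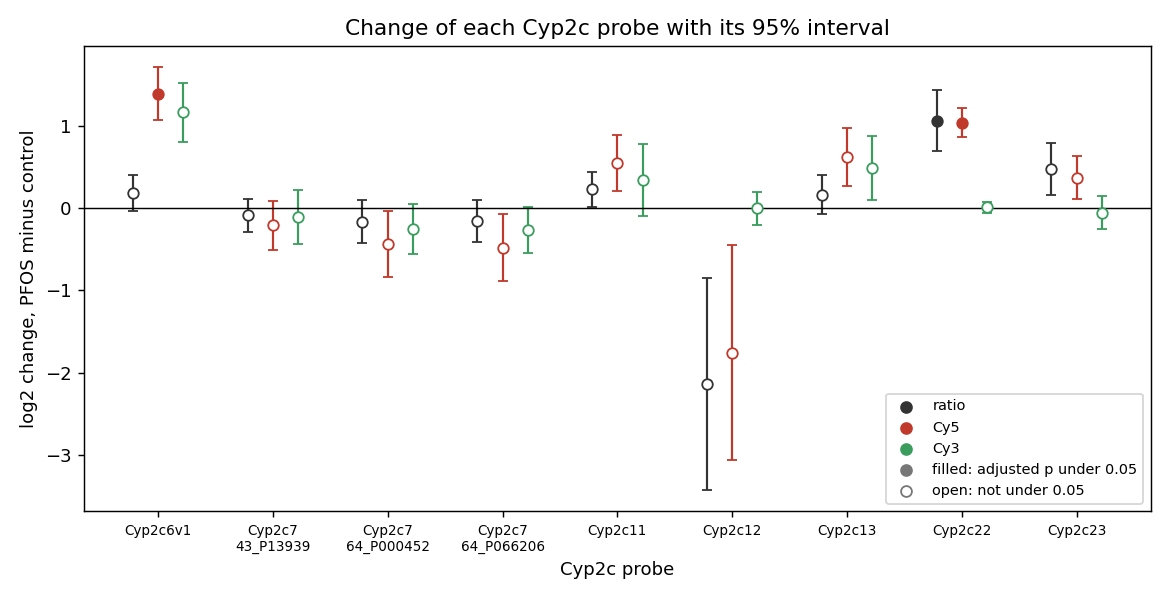
Log2 change, PFOS minus control (vertical axis), of the 9 Cyp2c probes (horizontal axis) in the ratio, Cy5 and Cy3, with 95% intervals from limma, n = 4 each, and filled points where the adjusted p was under 0.05. Cyp2c22 is filled in the ratio (1.06) and in Cy5 (1.04), Cyp2c6v1 in Cy5 (1.39), and the interval of Cyp2c12 reaches from -3.43 to -0.84 in the ratio. The Cy3 values of Cyp2c12 and Cyp2c22 lie near background.

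Genes outside the family were ranked by how closely their 8 log2 ratios followed a member's, as the mean absolute difference after each gene's own mean was taken off, among 9613 genes. Cyp2c22 was followed most closely by Cd36l1 (0.11 log2 units) and Decr2, a peroxisomal dienoyl-CoA reductase (0.13). Their ratios changed by 1.04 (SE 0.22) and 1.09 (SE 0.11), and both passed (limma adjusted p = 0.0355 and 0.00123). Cyp2c12 was followed at larger distances, by Slc16a11, of the monocarboxylate transporter family (0.62), Gpm6a, a membrane glycoprotein (0.64), and Fgf21, a hormone made in liver (0.69). The distance was not scaled to a member's own range over the arrays, so distances of different members are not comparable. That range was 3.92 log2 units for Cyp2c12, 1.59 for Cyp2c22, 0.97 for Cyp2c23 and 0.51 for Cyp2c11 and Cyp2c13. Gpm6a stood at 0.33, 1.92, 1.61 and 0.19 in the PFOS livers, against 2.25, 2.59, 2.27 and 3.23 in the control livers. PFOS 1 and PFOS 4 were its lowest livers, as for Cyp2c12, control 4 was its highest, and its change of -1.57 did not pass (limma adjusted p = 0.0713). Slc16a11, which fell by 1.88 (SE 0.33, limma adjusted p = 0.0154), stood at 0.66, 0.87, 0.74 and 0.26 in the PFOS livers, against 3.45, 2.06, 2.78 and 1.77 in the control livers, with control 4 the lowest control as for Cyp2c12. Fgf21, which fell by 1.85 (SE 0.18, limma adjusted p = 0.00114), lay at 0.44 to 1.16 in the PFOS livers and 2.52 to 3.12 in the control livers. For Cyp2c23 the nearest genes were Ces1c (0.09), Cd276 (0.09) and Spryd7 (0.10), for Cyp2c11 Rpain (0.04), Yars2 (0.05) and Lsm8 (0.05), and for Cyp2c13 Adora2a, F10 and Hpd (each 0.05). The 8 points are 4 livers of each group, so a shared difference between the diets is part of every likeness.

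**Figure D4:**
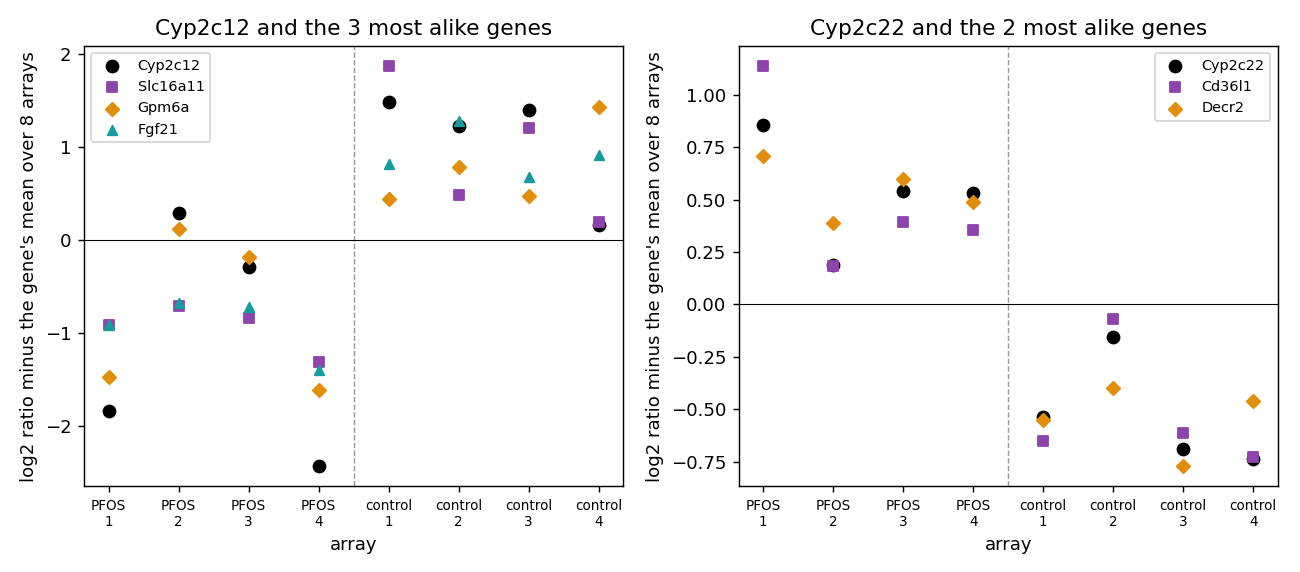
Log2 ratio less the gene's own mean over 8 arrays (vertical axes) on each array (horizontal axes, PFOS left of the dashed line, control right) for Cyp2c12 (left) with its 3 most alike genes and Cyp2c22 (right) with its 2. The Cyp2c22 set lies within 0.11 to 0.13 log2 units of Cyp2c22 on average and the Cyp2c12 set within 0.62 to 0.69.

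Genes that growth hormone sets in a sex-dependent way were described as lists without the family members. Of 16 tested male-biased genes, 1 was higher and 0 lower in the ratio, with a median change of 0.00. The called gene was Cyp3a2, a male-specific steroid hydroxylase, at 0.99 (SE 0.18, limma adjusted p = 0.0191), and the next 3 by p, the transporter Slco1a1 (-0.48), Nat8 (-0.81) and the carbonic anhydrase Car3 (-0.69), did not pass. Of 13 tested female-biased genes, 1 was higher and 2 lower, with a median of 0.11. Sult2a1, a hydroxysteroid sulfotransferase, fell by 1.06 on the log2 scale (SE 0.19) and Srd5a1, the steroid 5-alpha-reductase, by 0.81 (SE 0.15), while Acsl4, an arachidonate-activating ligase, rose by 0.74 (SE 0.09).

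Of the female-biased genes, A1bg and Sult2a1 are also given for each liver. A1bg, for a plasma glycoprotein, stood at 0.85, 0.56, 0.17 and 0.45 in the PFOS livers, against 1.80, 4.81, 1.59 and 2.12 in the control livers. Its groups did not overlap, with control 2 far above the rest, and its change of -2.07 (SE 0.62) did not pass (limma adjusted p = 0.110). Its signal cleared the background on 6 of 8 arrays in Cy5 and on 0 in Cy3, so the size of this ratio is uncertain, and in Cy5 it changed by -1.33 (SE 0.39, limma adjusted p = 0.0946). Sult2a1 stood at 7.29, 7.06, 7.75 and 7.51 in the PFOS livers, against 8.54, 8.63, 7.97 and 8.70 in the control livers. These groups did not overlap. In Cy5 it changed by -2.15 (SE 0.31, limma adjusted p = 0.00537), a larger size than in the ratio, and its Cy3 signal was also lower on the PFOS arrays, by a change of -1.08 that did not pass (limma adjusted p = 0.0771).

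Of 16 tested regulators of Cyp2c genes, 0 passed in limma in either direction, against 3.74% of all probes. An unadjusted p under 0.05 was found for 6, against 19.5% of all probes, and the median change was -0.01. Among those with the smallest p were Cebpb (0.86, SE 0.22, limma adjusted p = 0.0734), Nr1i3, which encodes the drug receptor CAR (1.40, SE 0.45), and Foxa2 (-0.65, SE 0.25). Onecut1 changed by 1.21 (SE 0.51, limma adjusted p = 0.236) and Hnf4a by 0.12 (SE 0.29). Onecut1 stood at 3.67, 4.21, 3.35 and 5.02 in the PFOS livers, against 4.25, 3.01, 1.99 and 2.15 in the control livers. These groups overlapped at control 1. Of 13 tested genes of growth hormone receptor signalling, 1 was higher and 0 lower, with a median of -0.16. The called gene was Socs2, an inhibitor of the pathway, at 1.14 (SE 0.23, limma adjusted p = 0.0307), and Stat5a (-0.40), the receptor Ghr (-0.32) and Socs3 (-0.23) came next and did not pass. Stat5b changed by -0.32 (SE 0.13, limma adjusted p = 0.235).

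Enzymes that act beside the Cyp2c proteins were described in the same way. Of 10 tested genes that supply electrons or heme to P450 enzymes, 3 were higher and 0 lower, with a median of 0.24. They were Por, the P450 reductase (1.12, SE 0.21), Cyb5a, cytochrome b5 (0.74, SE 0.15), and Alas1, the first enzyme of heme synthesis (1.56, SE 0.21), and Pgrmc2 (0.28) came next without a call. Of 15 tested genes of the arachidonic acid epoxygenase pathway around Cyp2c23, 4 were higher and 0 lower, with a median of 0.00. They were the epoxygenase Cyp2j4 (1.52, SE 0.15), the epoxide hydrolases Ephx1 (0.92, SE 0.11) and Ephx2 (1.41, SE 0.31), of which the soluble Ephx2 opens epoxyeicosatrienoic acids, and Acsl4 again. Of 12 tested retinoid genes, 2 were higher and 0 lower, with a median of 0.00. They were the retinal dehydrogenase Aldh1a1 (1.82, SE 0.14) and Dhrs4 (0.42, SE 0.08), and Rdh10 (-0.26) and Cyp26b1 (0.28) did not pass. The shares of all probes called higher and lower, given above, are the background for these counts.

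Markers of 8 liver and blood cell types were set beside these results. In the ratio 0 of 43 tested markers passed in limma, and 9 had an unadjusted p under 0.05, a share near the 19.5% of all probes. They were 3 of 4 sinusoidal endothelial, 3 of 8 hepatocyte, 2 of 8 stellate and 1 of 4 cholangiocyte markers, and 0 in the other lists. Of the endothelial markers, Lyve1 (-0.69), Kdr (-0.48) and Fcgr2b (-0.46) were those under 0.05, and Pecam1 changed by -0.06. The summed Cy5 level of 8 hepatocyte markers lay at 19.99 to 20.09 log2 units in the PFOS livers, against 20.10 to 20.20 in the control livers, without overlap. Of the 8, Apoa1 (-1.80) and Serpina1 (-0.29) were called lower in Cy5, Apob and Cps1 were below 0 without a call, and Alb, Ttr, Fgb and Tat were above 0 without a call. Those of the other lists overlapped between the groups. The 4 of 7 sinusoidal endothelial markers that were tested summed to 12.72 to 13.22 in the PFOS livers, against 13.15 to 13.96 in the control livers, and the 4 of 6 cholangiocyte markers to 10.17 to 10.43 in the PFOS livers, against 9.87 to 10.18 in the control livers. In whole liver, fewer cells of a type and less RNA per cell cannot be told apart, and the part of these markers in the Cyp2c values was not tested.

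**Figure D5:**
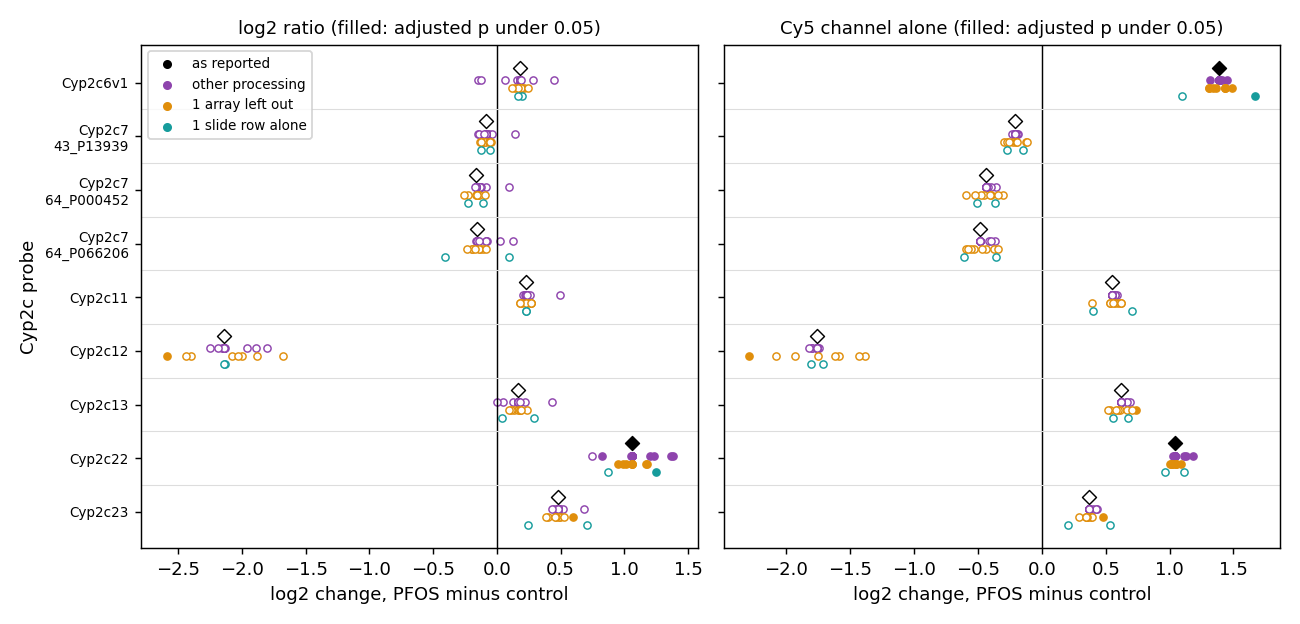
Log2 change, PFOS minus control (horizontal axes), of the 9 Cyp2c probes (vertical axis) in the ratio (left) and in Cy5 alone (right) as reported, under other processing, with 1 array left out and within 1 slide row, filled where the adjusted p was under 0.05. Cyp2c22 lay at 0.75 to 1.38 in the ratio and Cyp2c6v1 at 1.32 to 1.45 in Cy5 over the other processing. Cyp2c12 was filled only where PFOS 2 was left out (-2.59 and -2.29).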

How the data were processed

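Liver RNA of 4 PFOS and 4 control rats was measured on two-colour Agilent arrays. Per the file headers, Agilent Feature Extraction (version 10.7.3.1) wrote the linear intensity values of spots in the scanner files. How the authors made the log2 ratios of their deposited value table is not given in the sources used here. Those columns correlated across probes with the loess log2 ratio without background subtraction at 0.995 to 0.997 (slopes 0.989 to 0.993), from which scale and direction were read, and its medians per array were -0.061 to -0.048, with the centring unknown.

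Median signals were corrected by normexp (offset 50). Ratios were normalized by loess within arrays with control spots at weight 0, and single channels by quantiles between arrays. Outlier spots (922 to 1261 per array) were left out, spots of a probe averaged, and probes kept if 4 or more of 8 arrays had them well above background in Cy5 (16952 of 30367). Groups were compared with limma 3.58.1 in R 4.3.3 (lmFit and eBayes, two-sided, Benjamini-Hochberg over all kept probes). A log2 change is PFOS minus control. The limma fit was tested on simulated ratios with known changes, and the steps before it were not. Replicate numbers follow accession order and pair nothing.

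Accessions were matched to RefSeq symbols (18004 probes). Genes named are all members, per list those called or, under 4 calls, the smallest p up to 4, and the 3 genes most alike each member that ranged over at least 0.5. Results withheld for evaluation are not reported here. Where a list gene has several probes, the brightest in Cy5 stands for it. Onecut1, Hnf4a, Stat5b and Sult2a1's arrays were described after their values were seen. The members and lists were chosen with earlier results of these data known. Alternatives were other background, normalization, filter, variance and weight settings, 1 probe per gene, the authors' table, blocks for the slide's rows or columns, and leaving out 1 array at a time. Slide rows taken singly and the single-channel changes per probe under these settings were added after the data were seen.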

Additional observations from a re-analysis of the deposited data

Results flagged for a closer look

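In 4 of 54 sets of 4 arrays, 1 array stood far from the other 3 of its group, with a gap to the nearest above Dixon's 95% limit, as a share of the group's range. Chance gives this in about 1 of 20 sets. In the ratio, PFOS 2 stood at 8.205 for Cyp2c7 probe A_64_P000452, above the next PFOS liver at 7.98, and control 3 stood at 8.0872 for Cyp2c13, below the next control liver at 8.33. In Cy3, PFOS 1 stood at 11.0745 for Cyp2c7 probe A_43_P13939, below the next at 11.62, and PFOS 4 stood at 6.4464 for Cyp2c12, above the next at 6.10. None of these 4 sets belongs to a called change, and the Cyp2c12 set is of reference signals near background.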

How the results depend on the processing

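Over 15 other settings the ratio of Cyp2c22 changed by 0.75 to 1.38 and passed in 14, the exception being normexp with offset 0, which left 0 of the 9 member probes called. These settings are not independent. Aquantile after loess leaves the ratios as they were and could not differ. The filter, block, variance and 1-probe settings kept the change at 1.06 and altered only its test. The Cyp2c22 ratio passed without any 1 array, at 0.95 to 1.18. Cyp2c22 and Cyp2c6v1 passed in Cy5 in all 11 settings, at 1.03 to 1.18 and 1.32 to 1.45, but Cyp2c22 did not pass in Cy5 within either slide row (0.96 and 1.11). The ratio of Cyp2c6v1 reversed to -0.144 with processed signals and -0.124 in the authors' deposited table, where Cyp2c13 was at -0.00148. Of the Cyp2c7 probes, A_43_P13939, A_64_P000452 and A_64_P066206 reversed to 0.146, 0.0952 and 0.13 after scaling between arrays, and A_64_P066206 to 0.0244 with processed signals and 0.0921 in slide row 2. Without 1 array, Cy3 changes ranged from -0.171 to 0.0397 for Cyp2c7 A_43_P13939 and from -0.109 to 0.0252 for Cyp2c23, turning without PFOS 1. Called member probes numbered 1 to 2 in the ratio, 2 to 4 in Cy5 and 0 to 1 in Cy3 with 1 array left out. The count of 2 in the ratio came without PFOS 2 (Cyp2c12) or control 3 (Cyp2c23), and that of 4 in Cy5 without PFOS 2. The Cy3 count of 1 was Cyp2c6v1, without PFOS 2 or control 3, and was also 1 with slide row as a block and after loess and Aquantile, where it changed by 1.16 and 1.22. Within slide row 1, 0 passed in the ratio and 1 in Cy5, and within row 2, 0 passed in Cy5. These rows hold 2 arrays of each group. Over all probes the ratio called 261 with median centring, 293 with slide column as a block and 369 to 551 with 1 array left out, against 634. Where not stated, the cause was not tested. Signals near background limit Cyp2c12 and Cyp2c22 in Cy3.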
